A study of Drosophila melanogaster with 8 samples.

Results

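The nuclear silencing machinery that acts with Piwi was described here through 10 genes: piwi, Panx, arx, mael, egg, wde, the gene of HP1a, sov, Su(var)2-10 and Mi-2. They were chosen by name, and their 33 deposited transcript rows were matched by RefSeq identifier and summed to 10 genes of the 18959 genes and transposons in the table. All 10 passed the filter on low values (2 or more libraries at 1 FPKM or above), as did 8755 genes and transposons in all. FPKM is a count of sequenced fragments divided by transcript length and library depth.

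Piwi is a nuclear member of the Argonaute family. It carries piRNAs, small RNAs made from transposon-rich loci, and pairs with nascent transposon transcripts. At the target it recruits proteins that lead to methylation of histone H3 on lysine 9, binding of the heterochromatin protein HP1a and loss of transcription. In the fly ovary this machinery works in germline cells and in the somatic follicle cells around them.

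Total RNA was sequenced from dissected Drosophila melanogaster ovaries. The null group held 1 library of flies with the egt17 allele and 1 library of flies with the egt8 allele, both labelled null mutants of egt, and the control group held 2 libraries of the Oregon-R wild-type strain. All flies were kept at 25 °C. The labels give neither the age of the flies nor the lesion of each allele, and do not say that libraries came from separate groups of animals, so p-values reflect the scatter of these libraries alone, which may be technical.

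The mutated gene was taken to be Boot, which the series title names. Boot RNA stood at 40.6 FPKM in egt17 ovaries and 52.1 FPKM in egt8 ovaries, against 88.6 and 89.7 FPKM in the wild types, and was lower in both alleles without passing the test over all genes (limma adjusted p = 0.9999). Depth read from the step of 1 fragment was about 6.15 M reads in egt17, 15.9 M in egt8, 6.32 M in wild type 1 and 16.6 M in wild type 2. Log2 levels correlated across genes at 0.966 between egt17 and wild type 1 and at 0.948 between egt8 and wild type 2, against 0.876 between the alleles and 0.901 between the wild types; genes are not independent replicates. The libraries thus fell into 2 pairs that each held 1 null and 1 wild-type library, which the labels do not name, and values within the pairs are given for each of the 10 genes and as medians for the pathway lists. All 10 germline markers checked were measured, with summed levels of 1206 FPKM in egt17 ovaries and 1872 FPKM in egt8 ovaries, against 1151 and 1758 FPKM in wild types 1 and 2.

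Summed levels of the markers of other cell types also varied. The 7 follicle cell markers summed to 41.9 FPKM in egt17 ovaries and 93.4 FPKM in egt8 ovaries, against 26.8 and 47.3 FPKM in wild types 1 and 2. The 6 eggshell genes of late follicle cells summed to 4178 and 9963 FPKM in the alleles, against 26911 and 19430 FPKM in the wild types, and the 10 muscle markers to 198 and 643 FPKM, against 354 and 250.1 FPKM. The eggshell sum was lower in each null library than in each wild-type library, while the muscle sum was lowest in egt17 and highest in egt8. Tm1 gave most of the muscle sum in egt17 and wild type 2. It was at 115 and 190 FPKM in the alleles, against 107 and 195 FPKM in wild types 1 and 2. Act57B, Mlc1, Mlc2, up, wupA, Tm2 and Zasp66 were lowest in wild type 2, and Mhc and bt in egt17. The order of the muscle sum is thus not that of most of its markers. The 5 hemocyte markers summed to 5.54 and 23.2 FPKM in the alleles, against 10.01 and 25.9 FPKM in the wild types. He was at 0 in every library. Most of the hemocyte sum in each library came from srp, at 3.9 and 15.6 FPKM in the alleles, against 5.09 and 24.7 FPKM. Pxn and NimC1 were lowest in wild type 2 and Hml in egt17, and all of these were highest in egt8. The order of the hemocyte sum is thus that of srp and not of the other measured markers. The 3 fat body markers summed to 0.328 and 9.14 FPKM in the alleles, against 0.0639 and 0.0681 FPKM in the wild types. The part of these cell types in the values below was not tested, and in whole ovaries fewer cells of a type and less RNA per cell cannot be told apart.

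The null and wild-type ovaries were compared first for all 10 genes together. None of the 10 changed past the test: the limma adjusted p was 0.9999 for each, and unadjusted p-values lay between 0.188 and 0.96. Over all 8755 genes and transposons limma called 0 (0%), with 166 at an unadjusted p under 0.05. With a term for the library pair 0 of the 10 passed, where 0.148% of all genes did. At an unadjusted limma p under 0.05 that fit had 1 of the 10, and 1152 of all 8755. Standard errors and intervals given for each gene come from the fit without the term, so they include the gap between the pairs. The errors ran from 0.317 to 0.811 without the term and from 0.137 to 0.247 with it, but the pairs were read from these same data. Of the 10 genes, 9 had a negative log2 difference, null minus wild type, and piwi alone a positive one. The median log2 difference was -0.231, against -0.06 over all genes tested, of which 57.9% were negative. The genes were chosen with earlier results of these data known, so the median describes them and supports no direction. It was -0.0311 without wild type 2 and -0.43 without egt8.

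Only mael and egg were below both wild types in both alleles, 2 of 10, where 11.6% of all genes tested were. None was above both wild types in both alleles, where 9.34% of all genes were. The remaining 8 genes had overlapping groups. Which genes were below both depended on the scaling: they were Panx, mael and egg with median-ratio scaling, and Panx, arx and Mi-2, but neither mael nor egg, with levels corrected for gene span in each library, an alternative chosen after the data were seen. With 1 library left out fewer values have to be ordered, and the count lower was then 6 when wild type 1 was left out, 4 for wild type 2, 5 for egt17 and 6 for egt8. Within the library pairs, 7 of 10 were lower in egt17 than in wild type 1 and lower in egt8 than in wild type 2, where 37.0% of all genes tested were; 0 were higher in both pairs, where 24.9% of all genes were.

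**Figure D1:**
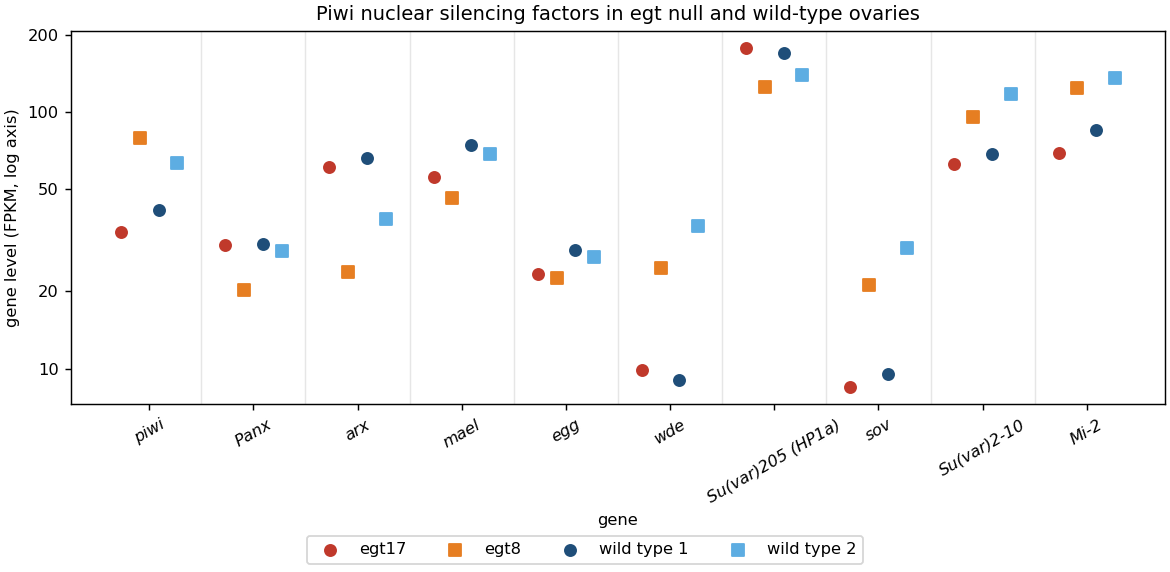
Level of each gene in FPKM (log axis) in the 4 total RNA libraries, with 1 point for each library and no averaging. For mael and egg both null points lie under both wild-type points; for wde and sov the egt8 and wild type 2 points lie over the egt17 and wild type 1 points.

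The piwi gene encodes the Argonaute protein itself and lies on chromosome 2L from 10982205 to 10987420 (dm6). It stood at 34.1 FPKM in egt17 ovaries and 79.5 FPKM in egt8 ovaries, against 41.3 FPKM in wild type 1 and 63.3 FPKM in wild type 2. The groups overlapped: egt17 was the lowest library and egt8 the highest. The log2 difference was 0.03 ± 0.53 (SE, n = 2 against 2), with a 95% interval for the fold from 0.398 to 2.61. Within the pairs it was -0.27 in egt17 and 0.32 in egt8. The annotation places the end of SCAR 191 bases into piwi, so a few reads could belong to either gene. Its 2 transcripts held 46.05% to 53.95% of the summed level in any library and behaved alike, with log2 differences of 0.01 and 0.04.

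Panx and arx encode partners that Piwi needs in the nucleus. Panx (Panoramix), on 2R from 21310368 to 21312354, links Piwi at its target to the silencing enzymes. Its RNA was at 30.2 FPKM in egt17 ovaries and 20.2 FPKM in egt8 ovaries, against 30.6 and 28.6 FPKM in wild types 1 and 2. Only the egt8 library stood apart, under the other libraries, while egt17 lay between the wild types. On the log2 scale it differed by -0.25 ± 0.39, with -0.017 in the first pair and -0.48 in the second, and without egt8 it was 0.03.

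The arx gene (Asterix) encodes a small zinc finger protein that binds Piwi and lies on 3L from 18900595 to 18901554. It was at 61.1 FPKM in egt17 ovaries and 23.9 FPKM in egt8 ovaries, against 66.2 FPKM in wild type 1 and 38.2 FPKM in wild type 2. The egt17 value lay inside the wild-type range and the egt8 value under it. Its log2 difference of -0.38 ± 0.58 came from -0.11 in the first pair and -0.66 in the second. It was 0.28 without egt8 and 0.0037 without wild type 1, so its direction rested on single libraries. Against both wild types egt8 was at least 1.5-fold lower for arx alone of the 10 genes, where 12.8% of all genes were; egt17 was at least 1.5-fold below both for 0 of the 10, where 5.01% of all genes were. At least 1.5-fold above both were 0 of the 10 in egt17 and 0 in egt8, where 6.58% and 7.41% of all genes were.

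The mael gene (Maelstrom) had the largest difference among the 10. It encodes an HMG-box protein that silencing by Piwi needs and that acts on transcription in the germline, and it lies on 3L from 22721203 to 22726234. Its RNA stood at 55.9 FPKM in egt17 ovaries and 46.3 FPKM in egt8 ovaries, against 74.4 FPKM in wild type 1 and 68.8 FPKM in wild type 2. Both null libraries were under both wild-type libraries, with means of 51.1 ± 6.73 FPKM in the null group and 71.6 ± 3.96 FPKM in wild type (SD, n = 2 each). Its log2 difference, -0.48 ± 0.32, had a fold interval from 0.406 to 1.26 that includes no change. Within the pairs it was -0.41 in egt17 and -0.56 in egt8, and each of its 3 measured transcripts was below both wild types in both alleles, with log2 differences from -0.53 to -0.43. The transcripts share sequence and are not separate evidence.

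The histone methyltransferase and its cofactor carry out the step at chromatin. The egg gene (Eggless, also SetDB1) encodes the enzyme that methylates histone H3 on lysine 9 at Piwi targets and lies on 2R from 24775534 to 24779901. It was at 23.3 FPKM in egt17 ovaries and 22.5 FPKM in egt8 ovaries, against 29.0 FPKM in wild type 1 and 27.4 FPKM in wild type 2. Each group was tight and the groups did not overlap, with means of 22.9 ± 0.586 FPKM in null ovaries and 28.2 ± 1.17 FPKM in wild type (SD, n = 2 each). The log2 difference was -0.29 ± 0.35, an SE that limma draws toward the spread of all genes. Its fold interval from 0.439 to 1.53 includes no change, and limma did not call it. With levels corrected for gene span the groups overlapped. Within the pairs the log2 difference without that correction was -0.30 in egt17 and -0.27 in egt8. An antisense RNA, asRNA:CR44067, overlaps egg over 4191 bases and was at 9.10 FPKM in egt17 ovaries and 8.08 FPKM in egt8 ovaries, against 12.6 and 11.6 FPKM in wild types 1 and 2. Whether reads were counted by strand is not given in the sources used here, so reads of egg and of its antisense partner cannot be told apart.

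The wde gene (Windei), on 2R from 10800420 to 10808938, encodes the cofactor of Eggless. It was at 9.87 FPKM in egt17 ovaries and 24.6 FPKM in egt8 ovaries, against 9.02 FPKM in wild type 1 and 36.1 FPKM in wild type 2. The libraries parted by pair: both values of the first pair were low and both of the second were high, and the null values lay within the wild-type range. Without a pair term the log2 difference was -0.21 ± 0.81, the widest error of the 10, with a fold interval from 0.203 to 3.69 (SE 0.25 with the term). It was 0.12 within the first pair and -0.53 within the second, and 0.74 without wild type 2.

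Heterochromatin proteins came next. HP1a binds methylated lysine 9, and its gene lies on 2L from 8209626 to 8211122. It had the highest level of the 10 in every library, at 177 FPKM in egt17 ovaries and 125 FPKM in egt8 ovaries, against 170 FPKM in wild type 1 and 139 FPKM in wild type 2. The alleles lay on either side of the wild types by small margins. HP1a had a log2 difference of -0.04 ± 0.35, with a fold interval from 0.523 to 1.80, whose lower bound was the highest among the 10. The first pair gave 0.062 and the second -0.15.

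The sov gene (Small ovary) encodes a zinc finger protein of heterochromatin that interacts with HP1a, and lies on X from 6756322 to 6770712. It was at 8.46 FPKM in egt17 ovaries and 21.1 FPKM in egt8 ovaries, against 9.57 FPKM in wild type 1 and 29.6 FPKM in wild type 2. As for wde, the pairs stood further apart than the genotypes. The log2 difference was -0.31 ± 0.73, from -0.16 in the first pair and -0.47 in the second, and it turned to 0.45 without wild type 2 and to 0.30 without egt17.

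The SUMO ligase and the remodeller were the last members. Su(var)2-10 (PIAS) encodes a ligase for SUMO, a small protein modifier that helps recruit the methyltransferase, and lies on 2R from 9116122 to 9122000. This is 21.5 kb from Boot. Its summed level was 62.8 FPKM in egt17 ovaries and 95.6 FPKM in egt8 ovaries, against 68.7 FPKM in wild type 1 and 117 FPKM in wild type 2. Each allele was lower than the wild type of its pair, by -0.13 and -0.29 on the log2 scale, while the groups overlapped. The pooled log2 difference was -0.21 ± 0.43, and it was 0.17 without wild type 2 and 0.09 without egt17.

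Mi-2, on 3L from 19882051 to 19910215, encodes a chromatin remodelling ATPase that associates with the SUMO ligase step. Its level was 69.1 FPKM in egt17 ovaries and 124 FPKM in egt8 ovaries, against 84.8 FPKM in wild type 1 and 136 FPKM in wild type 2. Each allele was again under its paired wild type, by -0.29 and -0.13, and the groups overlapped. For Mi-2 the pooled value was -0.21 ± 0.45, and 0.12 without wild type 2 and 0.20 without egt17. Su(Tpl) lies within the bounds of Mi-2 over 20291 bases and was at 37.6 FPKM in egt17 ovaries and 65.0 FPKM in egt8 ovaries, against 38.6 and 92.7 FPKM in wild types 1 and 2.

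**Figure D2:**
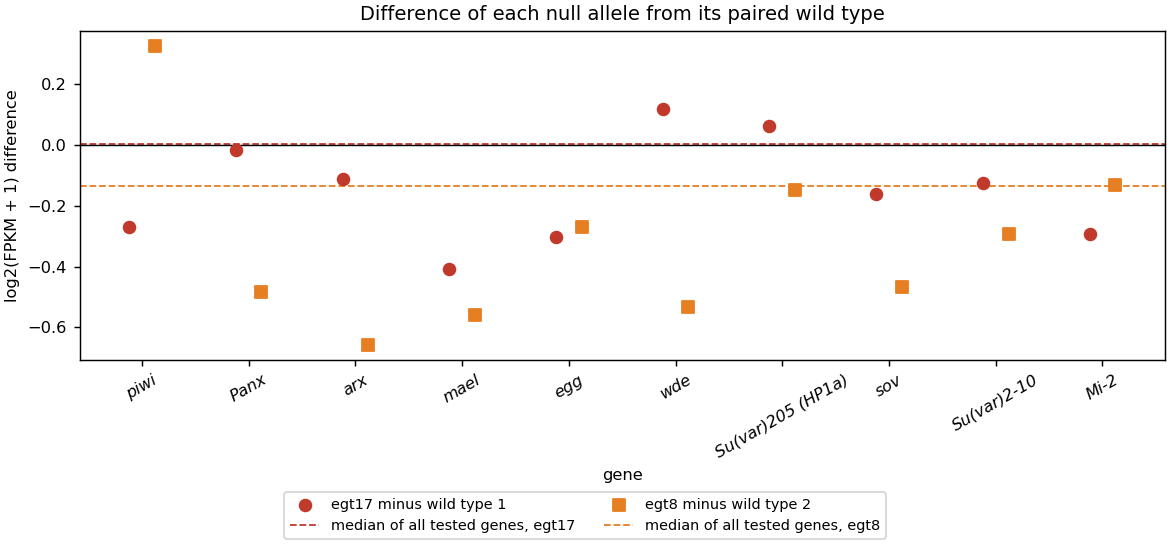
Difference on the log2(FPKM + 1) scale of egt17 from wild type 1 (circles) and of egt8 from wild type 2 (squares) for each gene, with dashed lines at the median of all genes tested (0.004 for egt17 and -0.135 for egt8). Both points of 7 genes lie under 0, and piwi has its egt17 point at -0.27 and its egt8 point at 0.32.

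Each allele was then set against both wild types, with 1 library an allele and so no replicate check. The alleles fell in different library pairs, so a difference between alleles cannot be told apart from one between pairs. In egt17, 6 of 10 genes were below both wild types (piwi, mael, egg, sov, Su(var)2-10 and Mi-2), where 26.5% of all genes were, and 1 was above both (HP1a), where 33.8% were. In egt8, 5 were below both wild types (Panx, arx, mael, egg and HP1a), where 42.3% of all genes were, and 1 was above both (piwi), where 21.0% were. The alleles shared mael and egg below both wild types, and for wde both alleles lay inside the wild-type range. The other 7 genes were outside the wild-type range in 1 allele, or in both on opposite sides. The median of the 10 against the paired wild type was -0.144 in egt17 and -0.381 in egt8, beside 0.004 and -0.135 over all genes tested. For piwi and HP1a the alleles lay on opposite sides of both wild types, as they did for 18.0% of all genes.

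Libraries of the same genotype differed in an order that followed gene size. The absolute difference between the wild types was larger than that between null and wild type for 7 of the 10 genes, but not for Panx, mael and egg. This held for a like share of all genes, 6528 of the 8755 tested. The wild-type gap sets 1 library against 1, while the null difference sets means of 2 libraries against each other and so scatters less. Wild type 2 over wild type 1 was 4.0-fold for wde, 3.09-fold for sov, 1.71-fold for Su(var)2-10, 1.60-fold for Mi-2 and 1.53-fold for piwi. It was 0.577-fold for arx, 0.818-fold for HP1a and between 0.92 and 0.95-fold for Panx, mael and egg. The genes of longest span were thus higher in wild type 2 and the shortest were lower, and egt8 over egt17 gave the same picture, with 2.50-fold for wde, 2.50-fold for sov, 2.33-fold for piwi and 0.391-fold for arx.

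All genes followed this order as well. Among 8017 tested genes with a span in the reference, the median log2 difference of wild type 2 from wild type 1 went up by class of span, and was -0.889 for genes of 101 to 1168 bases, -0.016 for genes of 2645 to 4225 bases and 0.753 for genes of 8924 bases and more. The same medians for egt8 from egt17 were -1.013, -0.106 and 0.763. Spearman's rho between span and these differences was 0.668 and 0.651 across genes, while the null minus wild-type difference gave -0.024; across the 10 genes rho with the wild-type difference was 0.879. These are descriptions, and the genes of a comparison share their libraries. The span includes introns, and transcript lengths were not used here. With log2 levels corrected for span in each library, chosen after the data were seen, the wild-type gap fell to 1.35 for wde and 0.84 for sov, against 1.89 and 1.53 without the correction. In size it was smaller for 7 of the 10 genes and larger for 3, which were mael (-0.41, against -0.11 without the correction), egg (-0.29, against -0.08) and Panx (0.26, against -0.09). The corrected null minus wild-type differences of the 10 genes lay between -0.41 and 0.10. What sets the pairs apart was not tested.

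**Figure D3:**
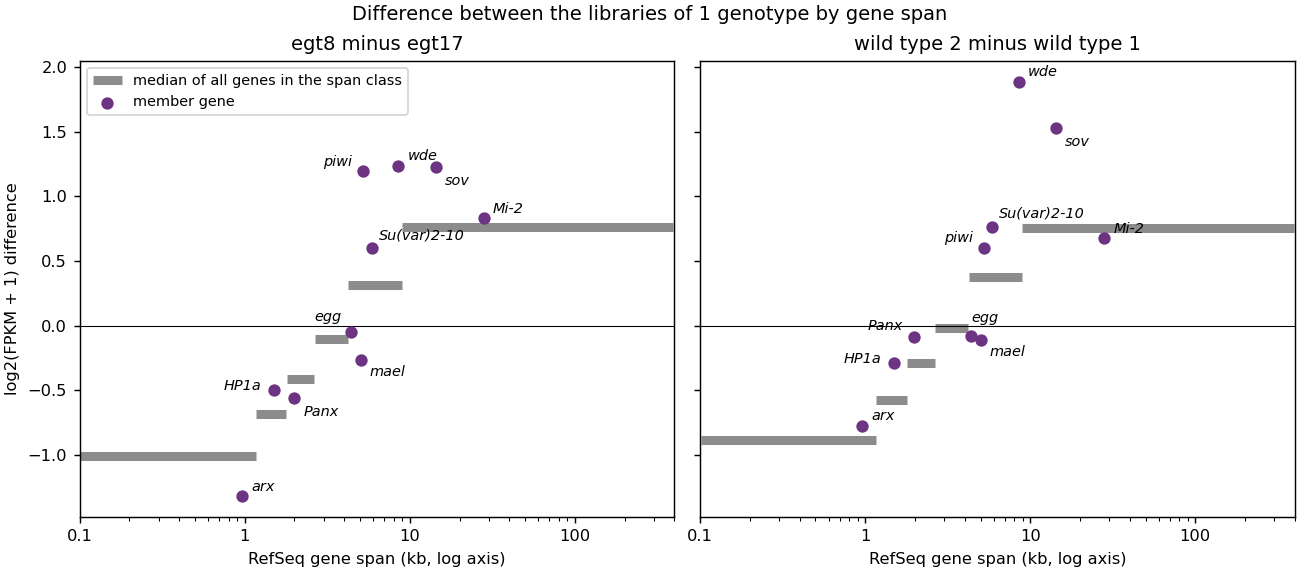
Difference on the log2(FPKM + 1) scale between egt8 and egt17 (left) and between wild type 2 and wild type 1 (right) against RefSeq gene span in kb (log axis). Grey bars are medians of all tested genes in 6 classes of span, drawn over the width of each class. Purple points are the 10 genes, with arx lowest in both panels at -1.32 and -0.78.

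Transcript rows of a gene carried nearly the same level for genes with few isoforms. The 4 Mi-2 transcripts held 23.5% to 26.1% of the sum each and the 2 wde transcripts 48.6% to 51.4% over all libraries. Su(var)2-10 was the exception with 14 rows. Its most abundant transcript was at 9.01 FPKM in egt17 ovaries and 11.3 FPKM in egt8 ovaries, against 10.5 FPKM in wild type 1 and 16.7 FPKM in wild type 2, and the next was at 9.71 and 11.2 FPKM in the alleles, against 10.6 and 15.9 FPKM in the wild types. The other 12 were at 10.1 FPKM or less in every library. Of the 14, 0 were below both wild types in both alleles, and their log2 differences ran from -0.41 to 0.14. Reads shared by transcripts may have been counted more than once, so shares describe the deposited rows.

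**Figure D4:**
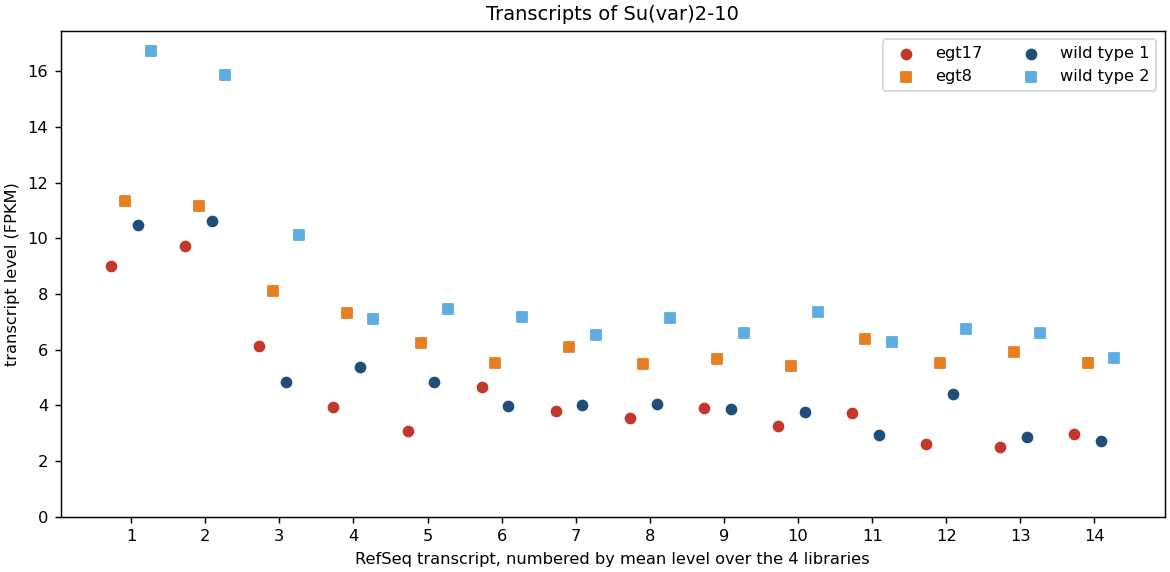
Level in FPKM of the 14 Su(var)2-10 transcripts in the 4 libraries, numbered by their mean over the libraries. The first 2 transcripts stand between 9.01 and 16.7 FPKM, and the points of egt8 and wild type 2 lie over those of egt17 and wild type 1 for each transcript.

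The summing of rows also set the order of levels between genes. By summed FPKM in wild type the order was HP1a (154 FPKM on average), Mi-2 (110.3), Su(var)2-10 (93.1), mael (71.6), piwi (52.3), arx (52.2), Panx (29.6), egg (28.2), wde (22.6) and sov (19.6). Ranges of neighbours were apart between HP1a and Mi-2, mael and piwi, and arx and Panx, and overlapped elsewhere. By the highest transcript of each gene, arx was the second at 52.2 FPKM and Su(var)2-10 came eighth at 13.6 FPKM, between mael (26.05) and wde (11.4). In null ovaries the summed order was the same but for piwi (56.8 FPKM), which stood before mael (51.1 FPKM). Among all genes tested the 10 lay between the percentiles 26.7 and 94.0 in egt17 and 48.8 and 93.1 in egt8, against 28.1 and 93.7 in wild type 1 and 54.9 and 93.6 in wild type 2.

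Related pathway genes were set beside the 10, in 6 lists of 50 distinct genes, all of which were tested. By limma 0 of the 50 passed over all genes, 0 had an unadjusted p under 0.05, and 0 passed with the library pair as a term. Of the 50, 7 were below both wild types in both alleles and 6 were above both, beside the 11.6% and 9.34% of all genes given above. The median log2 difference of the 50 was -0.128.

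Other nuclear silencing cofactors (7 tested, 5 negative, median log2 difference -0.096, with -0.059 in the first pair and -0.201 in the second) included nxf2, a relative of RNA export receptors that works with Panx, at 27.3 FPKM in egt17 ovaries and 27.7 FPKM in egt8 ovaries, against 28.5 and 25.0 FPKM in wild types 1 and 2. The null and wild-type levels of nxf2 overlapped. CoRest, a corepressor that works with the histone demethylase Su(var)3-3, was at 48.3 and 47.2 FPKM in the alleles, against 61.0 and 73.8 FPKM in the wild types, with a log2 difference of -0.48 ± 0.32. Su(var)3-3 was at 22.3 and 22.7 FPKM in the alleles, against 23.5 and 32.8 FPKM. Both were lower in each null library, and neither passed limma (adjusted p = 0.9999 for each). The list median moved to -0.52 with wild type 1 left out, -0.31 with egt8 left out, -0.21 with egt17 left out and -0.051 with wild type 2 left out.

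The H3K9 methylation and HP1 family list (13 tested) had 11 negative members and a median of -0.183, with -0.094 in the first pair and -0.485 in the second. Its sign rested on wild type 2, without which the median was 0.090; it was -0.50 with wild type 1 left out, -0.33 with egt17 left out and -0.30 with egt8 left out. Hmr, a heterochromatin protein known for hybrid incompatibility, was at 14.5 and 11.1 FPKM in the alleles, against 17.8 and 18.5 FPKM in the wild types. Su(var)3-7, a zinc finger partner of HP1a, was at 54.4 and 55.5 FPKM, against 67.7 and 87.4 FPKM. Su(var)3-9 and G9a encode further lysine 9 methyltransferases. Su(var)3-9 had the largest positive value of the list, 0.25 ± 0.41, and lay above both wild types in both alleles. G9a had -0.13 ± 0.86 and was lower than the wild type of its pair in each allele, at 17.5 and 60.9 FPKM, against 18.8 and 68.0 FPKM. Partners of Mi-2 and the NuRD complex (7 tested, 7 negative, median -0.188, pair medians -0.118 and -0.218) ran from -0.31 ± 0.40 for MBD-like to -0.02 ± 0.32 for HDAC1, the histone deacetylase, with 0 whose groups did not overlap. This median turned to 0.16 with wild type 2 left out and to 0.03 with egt17 left out; it was -0.39 with wild type 1 left out, -0.26 with egt8 left out and -0.08 by the highest transcript of each gene.

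The SUMO pathway (7 tested, 5 negative, median -0.068, pair medians 0.091 and -0.161) ran from -0.29 ± 0.52 for Aos1, a subunit of the SUMO activating enzyme, to 0.27 ± 0.34 for Sumo itself. Sumo was at 478 and 508 FPKM in the alleles, against 365 and 458 FPKM in the wild types, higher in each null library. The SUMO median stayed near 0, from -0.078 to 0.074 with 1 library left out, and was positive without wild type 1 and without egt8. Genes of Piwi loading and piRNA production (14 tested, 7 negative, median 0.039, pair medians 0.161 and -0.145) ran from -0.33 ± 0.38 for BoYb, a Tudor domain protein, to 0.79 ± 0.46 for fs(1)Yb, the Tudor domain protein of follicle cell Yb bodies. The level of fs(1)Yb was low, at 2.04 and 3.08 FPKM in the alleles, against 1.36 and 0.773 FPKM in the wild types. Its null libraries were both higher. The 5 tested follicle cell markers were higher in their pooled difference, with a median of 0.638, but only 2 of them were above both wild types in both alleles. The 6 eggshell genes of late follicle cells went the other way, all below both wild types in both alleles. The part of these cells in the fs(1)Yb value was not tested. The median of these 14 genes was -0.11 with egt17 left out, 0.31 with egt8 left out and 0.10 with wild type 1 left out, and -0.016 among those that passed a filter of 5 FPKM.

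Among the other Argonaute genes (4 tested, median 0.195, pair medians 0.363 and -0.189), aub, the cytoplasmic relative of Piwi in the germline, was at 50.6 and 61.9 FPKM in the alleles, against 38.7 and 48.2 FPKM in the wild types, with a log2 difference of 0.37 ± 0.34. AGO2, which acts in RNA interference, was at 45.3 and 57.8 FPKM, against 69.5 and 61.7 FPKM, with -0.35 ± 0.33. The groups did not overlap for either gene, and the median of this list was -0.52 with wild type 1 left out and -0.47 with egt8 left out, but 0.68 with wild type 2 left out and 0.52 with egt17 left out.

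**Figure D5:**
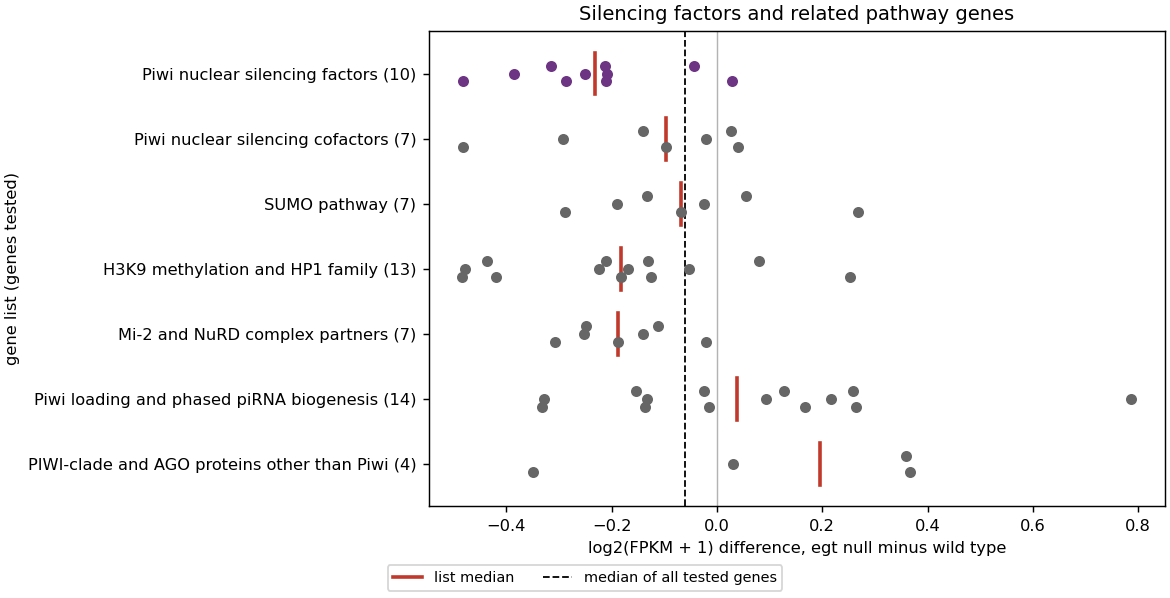
Difference between null and wild-type ovaries on the log2(FPKM + 1) scale for each tested gene, by list, with the number of genes in brackets. Red bars are list medians, from -0.231 for the 10 silencing factors to 0.195 for the other Argonaute genes; the dashed line is the median of all genes tested at -0.06, and points are shifted up or down only to keep them apart.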

How the data were processed

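Total RNA values are FPKM to which the authors had added 1 before they deposited them, in 35502 rows; the lowest value in each library was exactly 1, and 1 was subtracted. Bowtie2 2.2.4 and the dm6 build are named, per the submitters' processing notes; how reads were counted, with what tool, whether by strand and what became of multiply matching reads is not given in the sources used here. Of 35327 transcript rows, 32988 matched a gene of the RefSeq table (Release 6, the assembly of dm6), and 175 rows were transposons. Transcripts were summed by gene; the gene called HP1a here has the symbol Su(var)205. The 4 total RNA libraries were tested with limma 3.58.1 (R 4.3.3) on log2(FPKM + 1) with a mean-variance trend, two-sided, with Benjamini-Hochberg adjustment at 0.05 over all 8755 genes and transposons; the 2 alleles were the replicates of the null genotype, which left 2 residual degrees of freedom. Differences on this scale understate the change of low genes. The 95% intervals are from the same fit. The fit was tested on simulated data. Depth was estimated in genes with 1 transcript, as the commonest depth that 1 fragment would imply at the FPKM and span of a gene. The span includes introns, so the estimate fits only genes without them. It rested on 164 rows in egt17 to 297 rows in egt8. Alternatives changed the pseudocount (0.1), the filter (none or 5 FPKM), the scaling, the gene value, the trend, the library pair as a term and the libraries; a correction for gene span (91.6% of tested genes had one) was added after the data were seen. The genes and lists were chosen with earlier results of these data known. All 10 genes were named, and of each pathway list the largest positive and negative member; other list genes named here were picked after their values were seen. The small RNA table was not used here. Python 3.11.15, pandas 2.3.3, numpy 2.4.6 and matplotlib 3.10.9 were used.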

Additional observations from a re-analysis of the deposited data

Results flagged for a closer look

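The alleles went opposite ways for 2 of the 10 genes. For piwi, egt17 lay under both wild types (-0.269 against wild type 1, log2 scale) and egt8 over both (0.324 against wild type 2). For HP1a egt17 lay over both (0.0622) and egt8 under both (-0.148). With 1 library an allele the difference between alleles was not tested, and 18.0% of all genes tested had alleles on opposite sides of both wild types. Each allele also fell in its own library pair, so allele and pair cannot be told apart.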

How the results depend on the processing

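None of the 10 genes passed limma under any of the 14 alternatives; the lowest adjusted p was 0.302, for mael with the library pair as a replicate block. The labels give the null libraries no replicate number, so these pairs were read from the data. The block called 13 genes and transposons over the whole table, against 0 without it, and 12 together with the gene-span correction; with 1 library left out limma called 3 to 9 and assumed that a lone library varies like the others. No other alternative gave a call. The block changed no call of the 10 genes or of the 50 pathway genes. The directions of mael (-0.62 to -0.35 with 1 library left out) and egg (-0.33 to -0.25) held under all 14 alternatives, most of which could not turn them. Both null values lay under both wild types, so leaving out 1 library or changing the pseudocount could not reverse the sign. The filters, the trend and the block leave the estimate unchanged. Scaling, the gene value of mael and the gene-span correction could have turned it, and gave -0.53 to -0.41 for mael and -0.33 to -0.22 for egg. The other 8 turned with a library left out: piwi -0.57 to 0.63, Panx -0.53 to 0.0291, arx -1.05 to 0.28, wde -1.15 to 0.74, HP1a -0.29 to 0.21, sov -1.08 to 0.45, Su(var)2-10 -0.59 to 0.17 and Mi-2 -0.63 to 0.20. Scaling turned 2 values near 0, HP1a to 0.0041 (median ratio) and piwi to -0.0107 (equal library sums); the cause was not tested. With 1 library left out the median of the 10 genes ran from -0.43 to -0.0311, the count lower in both alleles from 4 to 6 (with all libraries 2, or 3 under median-ratio scaling, with Panx added, and 3 under the gene-span correction, where Panx, arx and Mi-2 took the place of mael and egg) and the count higher from 0 to 1 (0 with all libraries). Depth was lowest in egt17 and wild type 1.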

Other observations

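The noncoding RNA lncRNA:CR43496 lies within the bounds of sov over 882 bases. It was at 27.6 FPKM in egt17 ovaries and 9.45 FPKM in egt8 ovaries, against 12.1 and 10.2 FPKM in wild types 1 and 2, while sov was at 8.46 FPKM in egt17 ovaries and 21.1 FPKM in egt8 ovaries, against 9.57 and 29.6 FPKM. The egt17 value of the noncoding RNA was above the other libraries, with no replicate of that allele. Both were picked after their values were seen.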
